A study of Mus musculus with 6 samples.

Results

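Mouse sperm carry thioredoxins and peroxidases of their own, and 10 genes, some of this kind and some active in most cells, were followed between the neonatal and the adult testis. The genes were Txndc2, Nme8 (also called Txndc3), Txndc8, Txnrd3, Txnrd1, Gpx4, Gpx1, Prdx4, Prdx6 and Txn1. They were found through the RefSeq accession of each mRNA probe on the array. All 10 had a probe, out of 19053 genes with a named mRNA probe, and together they had 15 probes.

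RNA of whole testis from male C57/BL6 mice was labelled with Cy3 and hybridised to 1-colour Agilent arrays that carry lncRNA and mRNA probes. The strain is spelled C57/BL6 as in the labels, and the methods write C57BL/6. The neonatal group was 6 days old and the adult group 8 weeks old. Each group had 3 biological replicates, each from a group of mice, so the spread between replicates is a spread between groups of animals. By the methods the adult groups held fewer mice than the neonatal ones. The labels name no transgene and no treatment.

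Thioredoxins are small proteins that reduce disulfide bonds in other proteins through a pair of cysteines. Thioredoxin reductases recharge them with electrons from NADPH, while peroxiredoxins and glutathione peroxidases pass such electrons on to peroxides. In the male germ line several of these proteins exist in forms restricted to spermatids and sperm, where disulfide bonds stabilise the tail structures and the condensed chromatin.

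All values below are log2 of a probe's processed signal over the 75th percentile of its array, so 0 is the signal of that percentile. The testis label was set against markers. Across the 5 spermatid markers (Prm1, Prm2, Tnp1, Tnp2, Acrv1) the summed signal, in units of the 75th percentile, was 0.413, 0.401 and 0.498 on the neonatal arrays. On the adult arrays it was 1000, 1170 and 1380. All 5 spermatid markers rose past the threshold used below, with a median log2 fold change of 12.48. A lower level of such RNA can come from fewer cells of a type or from less RNA per cell, and whole-testis RNA cannot tell these apart.

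The spermatid-type thioredoxins stood out among the 10 genes. Adult minus neonatal differences were tested in limma, which fitted replicate pairs as blocks. A probe was called where it differed at least 5-fold at an adjusted p of 0.05 or less. Of the 15 probes 14 were well above background on some array, and 7 could be tested. The other 7 had spots that the image software marked as outliers, which left fewer than 2 complete pairs. All tested member probes but that of Prdx6 rested on replicates 1 and 2, since replicate 3 held a marked spot. Of the 7 tested, 4 probes, of 3 genes, were called higher in adult testis, against 12.6% of all 15121 mRNA probes tested. None of the 7 was called lower, against 13.6% of all mRNA probes. By the adjusted p alone, 4 of 7 were higher against 29.9% of all, and 1 of 7 was lower against 45.5%. The median log2 fold change of the 7 probes was 9.22, and that of all mRNA probes tested was -0.39. These genes were chosen with earlier results known, so the counts describe them and test nothing further.

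With the outlier-marked spots kept, 14 of the 15 probes could be tested. Then 4 were called higher, against 12.8% of 19310 mRNA probes, and 1 was called lower, against 15.2%. By the adjusted p alone 6 were higher, against 30.0%, and 4 were lower, against 49.3%. The median log2 fold change of the 14 probes was 0.32, and that of all mRNA probes tested in this way was -0.49.

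**Figure D1:**
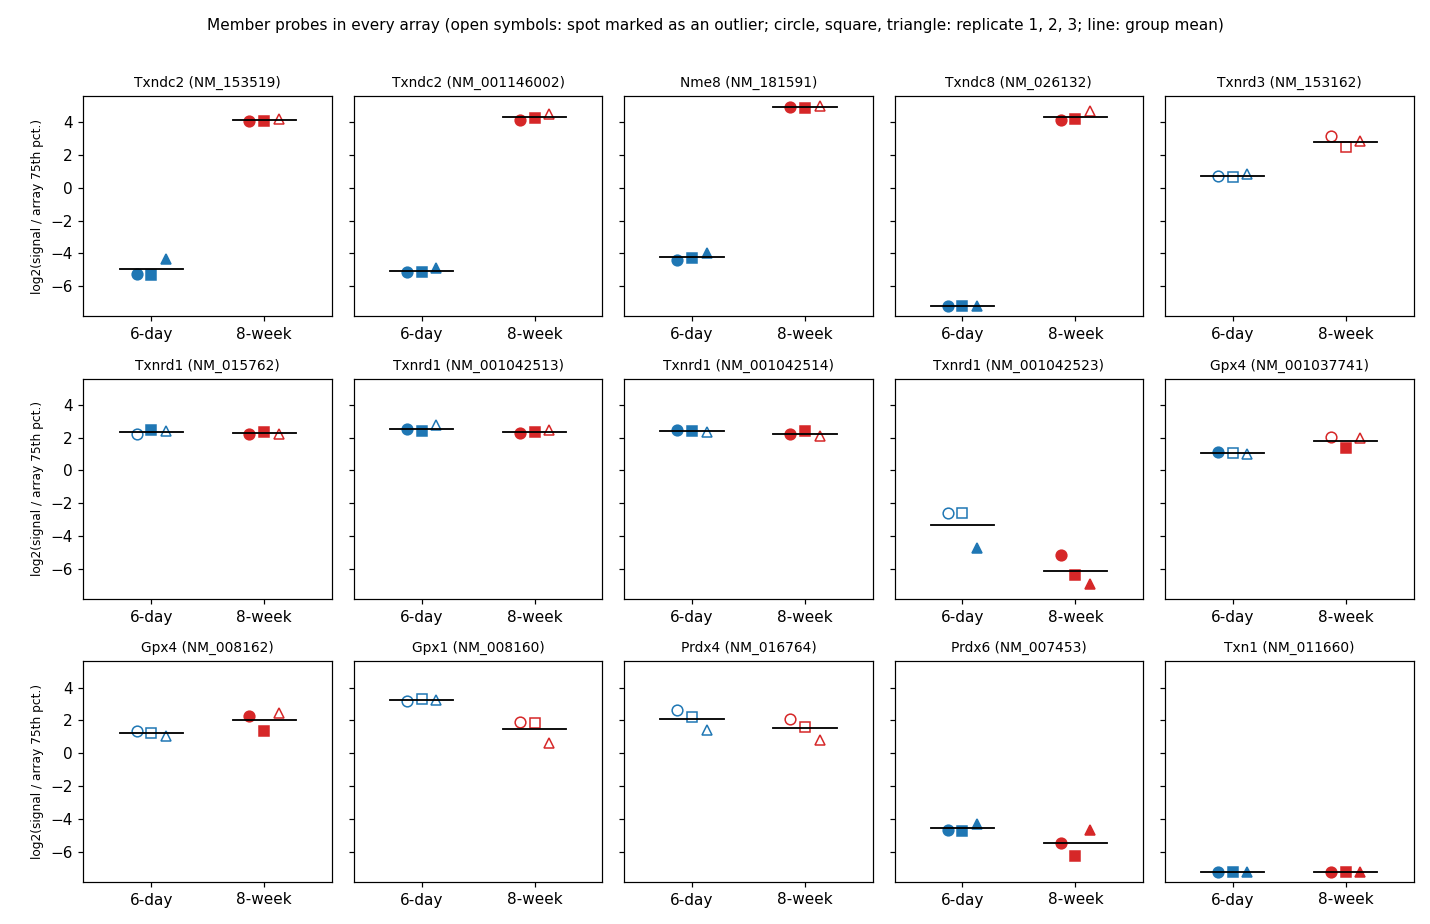
Signal of each of the 15 probes on every array, as log2 of the signal over the array's 75th percentile (y axis), in 6-day and 8-week testis (x axis); circles, squares and triangles are replicates 1, 2 and 3, open symbols are outlier-marked spots and the lines are group means. The probes of Txndc2, Nme8 and Txndc8 lie at -3.98 or lower on every neonatal array and at 4.07 or higher on every adult array.

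Txndc2 encodes a thioredoxin of the fibrous sheath, the protein casing of the sperm tail. Its probe for NM_153519 read -5.26, -5.30 and -4.32 on the neonatal arrays and 4.07, 4.08 and 4.21 on the adult arrays. Every adult array was above every neonatal one, and the groups did not overlap. Leaving out the outlier-marked spot of adult replicate 3, the adult level was 653-fold higher (log2 fold change 9.35, SE 0.14, adjusted p = 0.00015). A further Txndc2 probe, for NM_001146002, read -5.11, -5.14 and -4.89 in neonatal testis and 4.15, 4.25 and 4.49 in adult testis. It gave a 642-fold difference (log2 fold change 9.33, SE 0.14, adjusted p = 0.00016). Both probes gave the same picture, and each was higher in adult testis in 3 of 3 pairs.

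Nme8 joins a thioredoxin domain to nucleoside diphosphate kinase domains and is also found in the sperm tail. Its probe read -4.39, -4.27 and -3.98 in neonatal testis and 4.91, 4.87 and 4.98 in adult testis. The adult values were close to one another (mean 4.92, SD 0.06, n = 3), and again no neonatal array came near them. The fold change was 595 (log2 9.22, SE 0.14, adjusted p = 0.00017), with the spot of adult replicate 3 left out as an outlier.

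Txndc8, a thioredoxin linked to the Golgi and the forming acrosome of spermatids, was not well above background on any neonatal array. The adult arrays read 4.15, 4.16 and 4.68. Against the lowest signal that counted as well above background on the neonatal arrays, adult testis held at least 2820-fold more. That bound keeps the outlier-marked spot of adult replicate 3, while the limma fit left it out (adjusted p = 0.00014). This bound holds only for the background treatment used here, since the log2 fold change of Txndc8 was 11.38 in this fit and 9.59 after normexp background correction. The other bounds below carry the same limit and also keep marked spots. As a bound, this value cannot be ranked against those of Txndc2 and Nme8.

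The differences of these 4 probes were present on both slides. No label names a slide: arrays whose headers share a scan identifier are called a slide here. By that identifier, neonatal and adult replicates 1 and 2 shared slide 1, and replicates 3 shared slide 2. With all spots kept, the Txndc2 differences were 9.35 and 9.33 within slide 1 and 8.53 and 9.38 within slide 2. For Nme8 they were 9.22 and 8.96. Slide 2 holds 1 pair, so its values have no test, and slide and replicate 3 cannot be told apart.

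Txn1, the thioredoxin of the cytosol of most cells, was not well above background on any of the 6 arrays. No fold change can be given for it, and a low level cannot be told from a probe that does not work. Txn2, the mitochondrial thioredoxin, read 1.42, 1.40 and 1.96 in neonatal and 1.56, 1.12 and 1.73 in adult testis. Its groups overlapped (log2 fold change -0.07, SE 0.18, adjusted p = 0.75). Nme9 had no mRNA probe and was not analysed here.

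Of the wider list of 22 thioredoxins and thioredoxin-fold proteins, 21 had probes and 18 of their 27 probes were tested. Of these 18, 5 were called higher (12.6% of all mRNA probes were) and 1 was called lower (13.6% of all). By the adjusted p alone 6 were higher and 8 lower, against 29.9% and 45.5% of all. Their median log2 fold change was -0.40, against -0.39 for all mRNA probes. With outlier-marked spots kept, 25 probes were tested, 5 were called higher and 2 lower, and by the adjusted p alone 6 were higher and 15 lower. The median was then -1.24, against -0.49 for all mRNA probes. Without marked spots the 5 comprise the 4 probes above and Nxn, nucleoredoxin, which rose 11.8-fold (log2 fold change 3.56, SE 0.16, adjusted p = 0.00080). Nxn read -1.37, -1.51 and -1.94 in neonatal testis and 2.05, 2.20 and 1.53 in adult testis. The probe called lower belonged to Tmx2, a transmembrane member of the family, at 5.80-fold (log2 fold change -2.54, SE 0.27, adjusted p = 0.0050). With marked spots kept, a Txnl4a probe with every spot marked was called lower too (log2 fold change -2.33, SE 0.15, adjusted p = 0.00029).

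The reductases that recharge thioredoxins did not move as one. Txnrd3, which joins a glutaredoxin domain to a thioredoxin reductase and is abundant in spermatids, had its spot marked as an outlier on all 6 arrays. It read 0.72, 0.63 and 0.84 in neonatal and 3.14, 2.46 and 2.83 in adult testis. All adult arrays lay above all neonatal ones, by 4.23-fold with those spots kept (log2 fold change 2.08, SE 0.16, adjusted p = 0.00049), which is under the 5-fold threshold.

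Txnrd1, the cytosolic reductase, had 4 probes for different transcripts, and they did not give one answer. The probe for NM_001042513 read 2.52, 2.39 and 2.74 in neonatal and 2.30, 2.35 and 2.45 in adult testis (log2 fold change -0.13, SE 0.15, adjusted p = 0.46). That for NM_001042514 gave -0.11 (SE 0.16, adjusted p = 0.55). The probe for NM_015762, with outlier-marked spots kept, gave -0.07 (SE 0.12, adjusted p = 0.59). For these 3 probes the neonatal and adult arrays overlapped. The probe for NM_015762 passed in no setting. With the marked spots left out, a shift to the median (adjusted p = 0.11 and 0.14) or quantile normalization (0.13 and 0.15) did not make the probes for NM_001042513 and NM_001042514 pass. The former passed with the authors' log2 values (-0.46, adjusted p = 0.039). With marked spots kept it passed after a shift to the median (-0.45, adjusted p = 0.031) and after quantile normalization (-0.41, adjusted p = 0.040), and the latter passed after the shift (-0.44, adjusted p = 0.041). With the authors' values the latter was at the threshold (adjusted p = 0.050).

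The fourth Txnrd1 probe, for NM_001042523, read -2.59, -2.61 and -4.70 in neonatal testis, with the first 2 spots marked as outliers. In adult testis it read -5.17, -6.35 and -6.91, and 2 of these 3 spots were well above background. The groups did not overlap. With all spots kept it was 7.17-fold lower in adult testis (log2 fold change -2.84, SE 0.34, adjusted p = 0.0018), and it is the 1 probe called lower in that fit.

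Among the remaining reductases, Txnrd2 of the mitochondria fell 3.94-fold (log2 fold change -1.98, SE 0.14, adjusted p = 0.0019). Gsr, which reduces oxidised glutathione, read 2.25, 2.19 and 2.21 in neonatal and -1.55, -2.58 and -2.10 in adult testis. Without replicate 3, whose neonatal spot was marked, Gsr was called lower, 19.5-fold (log2 fold change -4.29, SE 0.31, adjusted p = 0.0021). Thus 1 of the 4 tested probes of this list was called lower and none higher, against 13.6% and 12.6% of all mRNA probes. Their median log2 fold change was -1.06, against -0.39 for all. With outlier-marked spots kept, 2 of 7 were called lower and none higher, against 15.2% and 12.8% of all, with a median of -0.19 against -0.49.

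The peroxidases of the 10 genes differed less than the called thioredoxins. Gpx4, a selenoprotein that reduces lipid peroxides and becomes a structural protein of the sperm midpiece, had 2 probes, both with many outlier-marked spots. The probe for NM_001037741 read 1.14, 1.08 and 0.99 in neonatal and 2.01, 1.36 and 1.99 in adult testis. That for NM_008162 read 1.37, 1.26 and 1.03, and then 2.28, 1.38 and 2.47. In both, adult replicate 2 was the lowest of its group, and the groups did not overlap.

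With all spots kept, the first Gpx4 probe was 1.65-fold higher in adult testis (log2 fold change 0.72, SE 0.19, adjusted p = 0.024). That p did not hold with the authors' log2 values (0.088), with a shift to the median (0.072), or without replicate 1 or replicate 3 (0.13 each). The other was 1.77-fold higher and did not pass the test (log2 fold change 0.82, SE 0.28, adjusted p = 0.054). Without replicate 2 both passed, at 0.94 (adjusted p = 0.018) and 1.17 (adjusted p = 0.023). Gpx1, the cytosolic glutathione peroxidase, read 3.18, 3.31 and 3.27 in neonatal and 1.88, 1.84 and 0.63 in adult testis, with every spot marked as an outlier. It was 3.49-fold lower in adult testis (log2 fold change -1.80, SE 0.31, adjusted p = 0.0060), and adult replicate 3 was the lowest. Within slide 1 the Gpx1 difference was -1.38 and within slide 2 it was -2.64.

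The other glutathione peroxidases went in both directions. Gpx6, a close relative of the epididymal enzyme Gpx5, read -4.05, -4.63 and -3.65 in neonatal and 3.81, 3.52 and 3.99 in adult testis. It was called higher, 258-fold (log2 fold change 8.01, SE 0.16, adjusted p = 0.00021). Gpx2 fell 2.72-fold (log2 fold change -1.44, SE 0.12, adjusted p = 0.0010) and Gpx3 fell 3.85-fold (log2 fold change -1.94, SE 0.11, adjusted p = 0.00040). Gpx5 and Gpx7 were each well above background on 1 neonatal array and on no adult array, at -0.17 both (adjusted p = 0.36). Gpx8 of the endoplasmic reticulum could be tested only with outlier-marked spots kept, and was then 11.1-fold lower in adult testis (adjusted p = 0.00029). Of the 5 tested probes of this list 1 was called higher and none lower, against 12.6% and 13.6% of all mRNA probes. Keeping marked spots, 1 of 9 was called higher and 1 lower, against 12.8% and 15.2% of all.

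Of the peroxiredoxins, Prdx4, which works in the endoplasmic reticulum, read 2.61, 2.22 and 1.43 in neonatal and 2.11, 1.59 and 0.83 in adult testis. The groups overlapped, but the adult value was the lower one in each of the 3 pairs, and all 6 spots were marked as outliers. With these kept, adult testis was 1.49-fold lower (log2 fold change -0.57, SE 0.11, adjusted p = 0.0093). Without replicate 2 the adjusted p for Prdx4 was 0.055. Prdx6, which also has phospholipase activity, was dim. It read -4.69, -4.73 and -4.33 in neonatal and -5.45, -6.26 and -4.67 in adult testis, where 2 of 3 spots were well above background. It was 1.84-fold lower in adult testis (log2 fold change -0.88, SE 0.27, adjusted p = 0.040), although the groups overlapped. The p for Prdx6 was above 0.05 without the replicate block (0.11), with normexp background correction (0.12), without the filter on dim probes (0.15) and in the methods' paired t-test (0.17). It was also above 0.05 without any 1 pair (0.063 to 0.19). The difference was -1.15 within slide 1 and -0.33 within slide 2.

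Of the remaining peroxiredoxins, Prdx1 was called lower at 8.20-fold (log2 fold change -3.04, SE 0.32, adjusted p = 0.0019) and Prdx3 at 7.05-fold (log2 fold change -2.82, SE 0.24, adjusted p = 0.0011). With outlier-marked spots kept, Prdx2 was 12.9-fold lower (adjusted p = 0.00017) and Prdx5 3.37-fold lower (adjusted p = 0.0028). Of the 3 tested probes 2 were called lower, against 13.6% of all mRNA probes, and none higher, with a median log2 fold change of -2.82. In the fit that keeps marked spots, 1 of 7 was called higher and 3 lower, against 12.8% and 15.2% of all, with a median of -1.75. By the adjusted p alone 6 of these 7 were lower, against 49.3% of all. Prdx6b, a relative of Prdx6, was not well above background on any neonatal array. It read 0.01, 0.07 and -1.78 in adult testis, at least 94.5-fold more (adjusted p = 0.00029 with outlier-marked spots kept).

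**Figure D2:**
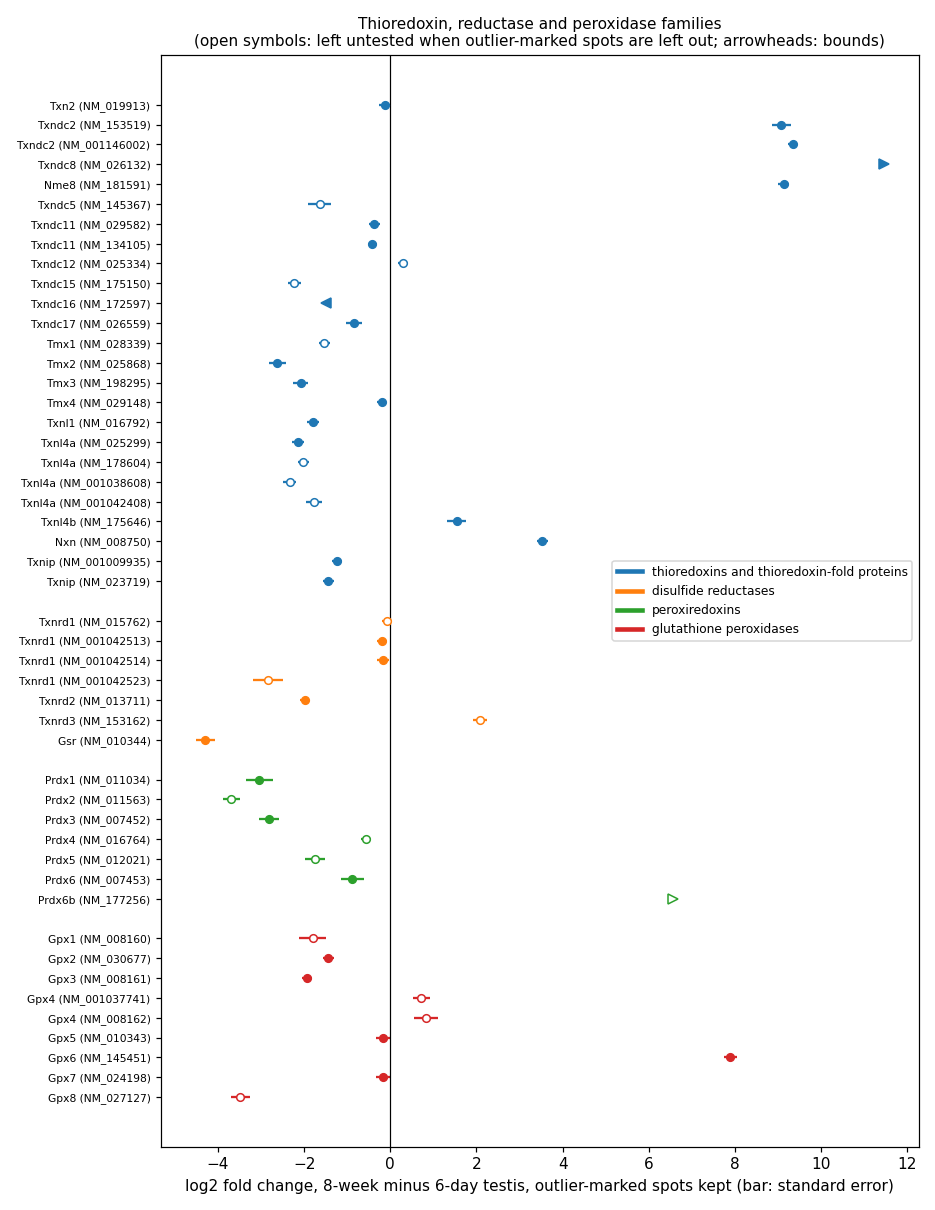
Log2 fold change of adult over neonatal testis (x axis) for every testable probe of the thioredoxin, reductase, peroxiredoxin and glutathione peroxidase lists (y axis), with outlier-marked spots kept and bars of 1 SE; open symbols mark probes not testable without those spots, and arrowheads are bounds. Txndc2, Nme8, Txndc8, Gpx6 and Prdx6b lie far to the right. To the left lie Gsr, Prdx1, Prdx2, Prdx3, Gpx8, Tmx2 and the Txnrd1 probe for NM_001042523, among others.

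The enzymes and structures around these proteins were counted from lists. By the adjusted p alone, all mRNA probes were higher in 29.9% and lower in 45.5% of cases, and with outlier-marked spots kept in 30.0% and 49.3%. None of the 8 tested probes for peroxide and sulfoxide partner enzymes (superoxide dismutases, catalase, sulfiredoxin, sestrins and methionine sulfoxide reductases) was called, and by the adjusted p alone 6 were lower and none higher (median log2 fold change -0.66). Keeping marked spots, none of 11 was called, with 2 higher and 7 lower (median -0.66). None of the 9 tested probes for glutathione synthesis and glutaredoxins was called, with 6 lower and none higher by the adjusted p alone (median -0.98), and with marked spots kept none of 10, with 7 lower (median -1.20). For selenoprotein synthesis and selenium supply none of 6 was called, with 2 higher and 4 lower by the adjusted p alone (median -1.01). With marked spots kept, 1 of 12 was called higher, that of Sephs2, and 1 lower, with 3 higher and 9 lower by the adjusted p alone (median -0.93). The probe called lower, for Lrp8 NM_001080926, was lower in adult testis (log2 fold change -3.32, SE 0.77, adjusted p = 0.016), while the Lrp8 probe for NM_053073 was higher at 0.84 (adjusted p = 0.0038).

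For disulfide formation in the endoplasmic reticulum none of 5 was called, with 3 higher and none lower by the adjusted p alone (median 0.75). With marked spots kept, 1 of 9 was called higher, that of Ero1b, with 4 higher and 2 lower by the adjusted p alone (median 0.29). Of the 6 tested probes for oxidative stress regulators, 1 was called lower and none higher, with 2 higher and 2 lower by the adjusted p alone. Keeping marked spots, 1 of 7 was called lower, with 4 higher and 3 lower. All the higher probes were of 1 gene, Keap1, which had 4 of the 7. The probe called lower was of Hmox1, the inducible heme oxygenase, which fell 6.27-fold (log2 fold change -2.65, SE 0.15, adjusted p = 0.0013).

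Probes for a list of sperm tail proteins rose with the spermatid thioredoxins. Of the 6 tested probes 5 were called higher, against 12.6% of all mRNA probes, and none lower, with a median log2 fold change of 6.34. Several of the 6 were of 1 gene, Odf2, and they differed. Those for NM_013615 and NM_001113214 rose 88.2-fold and 74.4-fold. That for NM_001113213 rose 2.04-fold (adjusted p = 0.019), and its groups overlapped. Keeping marked spots, 9 of 10 were called higher, against 12.8% of all (median 9.87). Smcp, a cysteine-rich protein of the mitochondrial capsule, was not well above background on any neonatal array and adult testis held at least 13800-fold more (adjusted p = 0.00013). Odf3, an outer dense fibre protein, likewise had at least 633-fold more (adjusted p = 0.00025).

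Markers of other cell types moved with age as well. Of all mRNA probes tested, 12.6% were called higher and 13.6% lower, so single calls in the short lists below are near that share. Of the tested probes, 3 of 5 spermatocyte probes were called higher, and they were of Hspa2 and Piwil1. Sycp1 (log2 fold change 0.82, adjusted p = 0.014) and Tex101 (1.03, adjusted p = 0.0082) were higher but under the 5-fold threshold. Sycp3, with marked spots kept, gave 0.10 (SE 1.18, adjusted p = 0.94). For the spermatogonia 1 of 4 tested probes was called lower, for the Sertoli cells 1 of 2, for the endothelium 3 of 6, and for the red blood cells 1 of 5. No tested probe was called for Leydig cells (of 3), peritubular myoid cells (of 4), macrophages (of 3) or epididymis epithelium (of 5). By the adjusted p alone 2 Leydig probes were higher and 1 lower, and 3 myoid probes were lower, against 29.9% higher and 45.5% lower of all. The Leydig marker Insl3 was 11.3-fold higher with marked spots kept (adjusted p = 0.00046). The summed Leydig signal was 26.2, 28.1 and 25.0 on the neonatal and 72.8, 56.4 and 54.3 on the adult arrays, and the myoid signal 21.7, 21.9 and 26.8, and then 4.80, 4.35 and 6.58. The rise of the Leydig sum came from Insl3, which had 5 of 6 spots marked as outliers. Without it, a sum made after the others were seen, the Leydig signal was 21.2, 22.8 and 23.0, and then 17.1, 17.0 and 19.0. Hsd3b1 gave most of that sum and was lower in adult testis (log2 fold change -1.03, adjusted p = 0.01). Star (1.35, adjusted p = 0.021) and Cyp11a1 (1.17, adjusted p = 0.0094) were higher. Cyp17a1, with marked spots kept, did not pass (0.78, adjusted p = 0.16). The summed signal of the Sertoli cell markers was 44.1, 44.5 and 36.0 on the neonatal arrays and 13.4, 11.7 and 10.3 on the adult ones. The markers Gfra1, Cnn1, Epb42 and Lcn8 were not well above background on any array. Whether the changes of these markers bear on the thioredoxin and peroxidase values was not tested.

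The members that rose together are shown with the bases just before their start, since motifs for the transcription of spermatid genes were searched there. RefSeq promoters of build GRCm38.p6 were given for 9 of the 10 genes, with 15 starts, from 250 bases before to 50 after each start. Searched on both strands were the full cAMP response element TGACGTCA, its core TGACG, which is part of the full element, the antioxidant response core TGACNNNGC and the TATA box TATAAA. Of all promoters in that table, 1.79%, 20.8%, 12.4% and 13.6% held them. The 15 starts held them in 0, 5, 2 and 1 cases.

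The first of the 2 Txndc2 starts and the starts of Nme8 and Txndc8 held none of the 4 motifs in the window. The other Txndc2 start held TGACNNNGC at position -203. Gpx6, which is not among the 10 genes but rose with them, held TGACG 11 bases before its start, shown in capitals. The core was also found at 3 of 4 Gpx4 starts, of which starts 2 and 3 overlap and share 1 site, so the 5 starts with the core hold 4 sites. A match describes letters only and shows no binding. The 250 bases before each start are given 5′ to 3′ on the gene's strand:
Txndc2 (chr17:65642205-65642454, minus strand): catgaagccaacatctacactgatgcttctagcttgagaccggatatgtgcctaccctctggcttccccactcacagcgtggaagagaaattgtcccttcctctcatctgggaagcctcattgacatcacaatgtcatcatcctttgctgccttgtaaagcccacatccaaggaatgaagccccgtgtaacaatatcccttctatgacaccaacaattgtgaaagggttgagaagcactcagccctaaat
Nme8 (chr13:19697761-19698010, minus strand): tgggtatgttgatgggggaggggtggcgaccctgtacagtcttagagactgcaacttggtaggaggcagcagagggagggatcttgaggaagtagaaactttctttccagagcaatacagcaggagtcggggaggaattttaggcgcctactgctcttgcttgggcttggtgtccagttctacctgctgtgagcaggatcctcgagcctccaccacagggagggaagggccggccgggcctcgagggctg
Txndc8 (chr4:58009127-58009376, minus strand): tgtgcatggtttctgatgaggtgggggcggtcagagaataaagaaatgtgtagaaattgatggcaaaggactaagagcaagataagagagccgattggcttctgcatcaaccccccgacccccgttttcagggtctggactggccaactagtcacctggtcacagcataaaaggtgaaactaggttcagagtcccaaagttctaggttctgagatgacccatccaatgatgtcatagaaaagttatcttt
Gpx6 (chr13:21311953-21312202, plus strand): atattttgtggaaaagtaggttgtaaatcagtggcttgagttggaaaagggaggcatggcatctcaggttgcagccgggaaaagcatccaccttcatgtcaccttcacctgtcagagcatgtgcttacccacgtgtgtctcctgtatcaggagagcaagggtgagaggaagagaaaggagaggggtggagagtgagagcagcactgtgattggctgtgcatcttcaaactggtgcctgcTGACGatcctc

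The precision of all values is limited by the number of arrays. The median log2 fold change over all tested mRNA probes was -0.39 with the 75th percentile, and -0.65 with a shift to the array median, so values near 0 depend on the scaling. Outlier marks covered 30.7% and 25.4% of spots on the neonatal and adult arrays of slide 2, and 6.11% to 10.7% on those of slide 1. Replicate 3 held a marked spot for Txn2, Nxn, Tmx2, Txnrd2, Gsr, Gpx6, Hmox1, Smcp and Odf3. The same held for the markers Cyp11a1, Hsd3b1, Sycp1 and Tex101. With marked spots left out, the tests of these genes rest on 2 pairs, replicates 1 and 2.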

How the data were processed

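Total RNA of whole testis was measured on 6 arrays, 3 neonatal and 3 adult. The deposited scanner files hold spot intensity values that the authors extracted with Agilent Feature Extraction 10.5.1.1. A value table in log2 was deposited by the authors too. Set against the scanner files, it was the log2 intensity, floored at 5, less 1 constant per array, for 99.8% of the values within 0.001. Its column medians were 1.28, 1.30, 1.27, 1.20, 1.27 and 1.22, and each constant lay within 0.018 of the log2 of its array's median, so the table amounts to a shift to that median. The methods name quantile normalization, which a shift by 1 constant per array is not. The deposited table served as an alternative.

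Control spots were left out. The processed intensity of each spot was divided by the array's 75th percentile and its log2 floored at -7.22, the highest over arrays of the log2 of 5 over the percentile. Outlier-marked spots were left out of the fit. A probe was tested if any array showed it well above background and at least 2 pairs were complete, 24517 lncRNA and mRNA probes in all, with limma 3.58.1 in R 4.3.3, age and replicate number in the model, and Benjamini-Hochberg adjustment over all of them. Means and per-array values include outlier-marked spots.

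A bound sets the bright group's mean over all its arrays against the dim group's mean of, per array, the higher of the lowest signal well above background and the probe's own. The methods name a paired test, and the labels number the replicates. Same-numbered arrays deviated together from their age means (r = 0.401, 0.339 and 0.681), though both neonatal arrays of slide 1 correlated more with the adult array of the other number (r = 0.432 and 0.374). The correlation therefore follows the slide and does not tell replicate numbers 1 and 2 apart. Of 22464 mRNA probes, 21905 were named through RefSeq (GRCm38.p6). The array header names another build, so gene coordinates are not printed, only those of the promoter table.

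All probes of the 10 genes and of the other reductases, peroxiredoxins, glutathione peroxidases and Txn2 were named. Apart from the marker lists, in each other list the 2 genes with the largest called change in each direction were named, along with Nxn as the other called thioredoxin-fold gene. Lrp8, Sephs2, Ero1b, Txnl4a and Insl3 were named because they were called with marked spots kept, and Keap1 because it holds most probes of its list. Odf2 was named because its probes differed. Some sperm tail and marker probes called only with marked spots kept were not named. Members and lists were chosen with earlier results of these data known. The code was tested on simulated data.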

Additional observations from a re-analysis of the deposited data

How the results depend on the processing

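The 4 probes called higher (of Txndc2, Nme8 and Txndc8) numbered 4 under every planned setting that could test them. Without replicate 1 or 2 as a pair, or without adult replicate 1 or 2, only 1 member probe could be tested, since the spots of adult replicate 3 are marked as outliers, and the count ranged from 0 to 4 over the left-out arrays. With outlier-marked spots kept, an addition chosen after seeing the data, it was 4 without each pair. The count called lower, 0 in the main setting, was 1 with outlier-marked spots kept, 1 with the authors' log2 values and 1 with the adjusted p alone, and 0 to 1 over the left-out arrays. It was 1 with those spots kept and either quantile normalization or a shift to the median, both also chosen after seeing the data. Prdx6 was the probe past the adjusted p alone. No member probe changed direction under any alternative. The p of Prdx6, of Prdx4 and of the Gpx4 probe that passed did not hold in every setting, and 2 Txnrd1 probes and the other Gpx4 probe passed in some. The leave-outs for Gpx4 and Prdx4, like the median shift and quantile normalization with marked spots kept, were chosen after seeing the data.

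The mRNA probes called, 3970 in all (1910 higher, 2060 lower), became 6149 (3873 lower) with the authors' log2 values, whose calls were higher in 37.0% of cases against 48.1%. They were 9024 (3541 higher, 5483 lower) at a fold change of at least 2, and 11402 (4515 higher, 6887 lower) by the adjusted p alone. With outlier-marked spots kept they were 6256 (3887 lower) after quantile normalization and 6047 (3769 lower) after a shift to the median. The methods' paired t-test called 3526 at its unadjusted threshold and 2738 after adjustment (1255 lower). Without the replicate block 3937 were called, and the 4 members higher stayed 4. Over the left-out arrays, including those left out with marked spots kept, the calls ranged from 1773 to 5465, those higher from 849 to 2494 and those lower from 914 to 3029. The lowest counts come with fewer probes tested, 8064 without replicate 2. What moved the other counts was not tested. Dim probes such as Prdx6 are limited by signal over background.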

Other observations

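The 3 genes Sephs2, Ero1b and Ero1a were chosen after their values were seen. The values of Sephs2 and Ero1b include outlier-marked spots. Sephs2, which makes the selenium donor for selenoproteins such as Gpx4 and Txnrd3, read 0.14, 0.28 and -1.32 in neonatal and 3.78, 4.08 and 3.20 in adult testis, with every spot marked as an outlier (log2 fold change 3.99, SE 0.22, adjusted p = 0.00018). Ero1b, an oxidase that drives disulfide formation in the endoplasmic reticulum, had a mean of 1.18 (SD 0.12, n = 3) in neonatal and 5.06 (SD 0.17, n = 3) in adult testis (log2 fold change 3.88, SE 0.14, adjusted p = 6.3e-05). Its relative Ero1a read 2.04, 1.84 and 3.55, and then 3.14, 3.07 and 4.62. For Ero1a no spot was marked, and it rose by 1.13 (SE 0.10, adjusted p = 0.0012), under the 5-fold threshold.

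Crisp1, an epididymis marker, read 2.43, -4.35 and 2.50 on the neonatal arrays and -4.23, -4.37 and -5.30 on the adult arrays. The second neonatal array lay with the adult ones. The epididymal genes Lcn8 and, by 1 of 2 probes, Lcn5 were not well above background on any array. Lcn9 was well above background on the 3 adult arrays and on no neonatal one (adjusted p = 0.0059). Adam7 was well above background on all 6 arrays, and differed by -0.28 (SE 0.43, adjusted p = 0.58). The epididymis markers therefore did not share 1 direction.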
